A study of Homo sapiens with 8 samples.

Results

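Small interfering RNA (siRNA) against TET2 was set against a non-targeting siRNA in NCCIT cells, a line of human embryonic carcinoma derived from a germ cell tumour. The comparison used the 2 arrays of cells that received the TET2 pool (siTET2) and the 2 arrays of cells that received the non-targeting pool (siNTC), 4 of the 8 arrays of the series. The other 4 arrays, 2 each after siRNA against TET1 (siTET1) and against TET3 (siTET3), entered the fit and served to ask what set TET2 depletion apart from depletion of its relatives. All groups were untreated NCCIT cells apart from the transfection, which was done on the first and on the second day after seeding, with harvest on the fourth day. Each pool joined several siRNAs to its gene, so effects of its single siRNAs cannot be told apart, and the depletion was partial and short compared with a knockout. NCCIT is a malignant line of aneuploid origin, and no other line is analysed here. All results are log2 intensities per gene on Affymetrix Human Gene 1.0 ST arrays, with 1 transcript cluster, a group of probes of this array design, for each of 18417 genes. A change is the log2 mean of siTET2 minus that of siNTC, given with its standard error, and values per array are given as replicate 1 and replicate 2.

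TET2 belongs to the ten-eleven translocation dioxygenases, which oxidise 5-methylcytosine to 5-hydroxymethylcytosine and further, a route by which methylation is removed from DNA. Unlike TET1 and TET3, TET2 carries no CXXC DNA-binding domain of its own and relies on partner proteins. TETs need iron, oxygen and 2-oxoglutarate, a metabolite of the tricarboxylic acid cycle, and share this chemistry with the prolyl hydroxylases that mark hypoxia-inducible factor (HIF) for destruction, with the hydroxylases of collagen and with the JmjC histone demethylases. In pluripotent cells 5-hydroxymethylcytosine is abundant, and the TETs are known to act with signalling and lineage factors at enhancers.

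The arrays of a group resembled each other closely. Over the 18417 genes the siTET2 replicates correlated at r = 0.9989 and the siNTC replicates at 0.9983, siTET2 with siNTC arrays at 0.990, and siTET2 arrays with those of the other depletions at 0.996 to 0.998. Markers of embryonal carcinoma were well above background, which was set at 5.21 from 341 olfactory receptor genes. SOX2, L1TD1, SALL4, DPPA4, GDF3 and PODXL lay above it on all arrays, as did all 9 measured markers of 12 listed, whereas POU5F1, NANOG and TDGF1 were not analysed here. Of 23 measured markers of fibroblasts, endothelium, blood, epithelium and muscle, 4 were above background, with no marker of endothelium or blood among them. A gene was past the test at an adjusted p under 0.05 with limma. That held for 6675 genes (36.2%), 2661 of them higher in siTET2 (14.4%) and 4014 lower (21.8%), so that 60.1% of the genes past the test were lower. After quantile normalization of the arrays 3370 genes were higher and 3316 lower, 49.6% lower, with the median over all genes at 0.004 in place of -0.039. Most changes were small: 1135 of the 6675 reached 1.5-fold (442 higher, 693 lower) and 228 reached 2-fold. The siTET2 and siNTC arrays did not overlap in 12465 of the 18417 genes. A lack of overlap alone therefore does not set a gene named below apart from most others. The shares of lower genes differed by chromosome. On chromosome 15, 249 of 412 genes above background were lower and 25 higher, and on chromosome 2, 347 of 806 were lower and 114 higher, while chromosome 7 had 209 of 590 higher and 108 lower. Chromosome 11 had 297 of 749 lower and 108 higher. The part of chromosomes 2, 7 and 15 in the group results below was not tested beyond the counts without them. Those counts keep the genes of chromosome 11, whose part was not tested. Nothing in the labels says that replicates were separate cultures, so p-values measure the spread between these arrays only. In bulk RNA a change in the share of cells that express a gene and a change per cell cannot be told apart.

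Gene groups were read against these shares. The 39 lists, chosen with earlier results of these data known, named 1265 genes, of which 1161 were measured, 951 of those were above background, 250 were higher and 320 lower. Circadian clock genes, chromatin oxygenases with Polycomb, splicing factors, glycolysis and the proteasome held the larger shares of higher members, at 38.7% to 50% of those measured. Oxidative phosphorylation, the integrated stress response and aminoacyl-tRNA synthetases held the larger shares of lower members, at 45.7% to 55.6%. In lineage factors, vascular factors, interferon genes and the genes of axon guidance and secretion the lower shares were 22.6% to 25%. These were near the 21.8% over all genes. More of the listed genes were above background (951 of 1161) than of all genes (69.2%), and calls were more frequent among bright genes: with the genes split evenly into 3 by mean level, 25.8% of the brightest 6139 were higher and 37.9% lower, against 2.28% and 7.66% of the dimmest 6139.

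**Figure D1:**
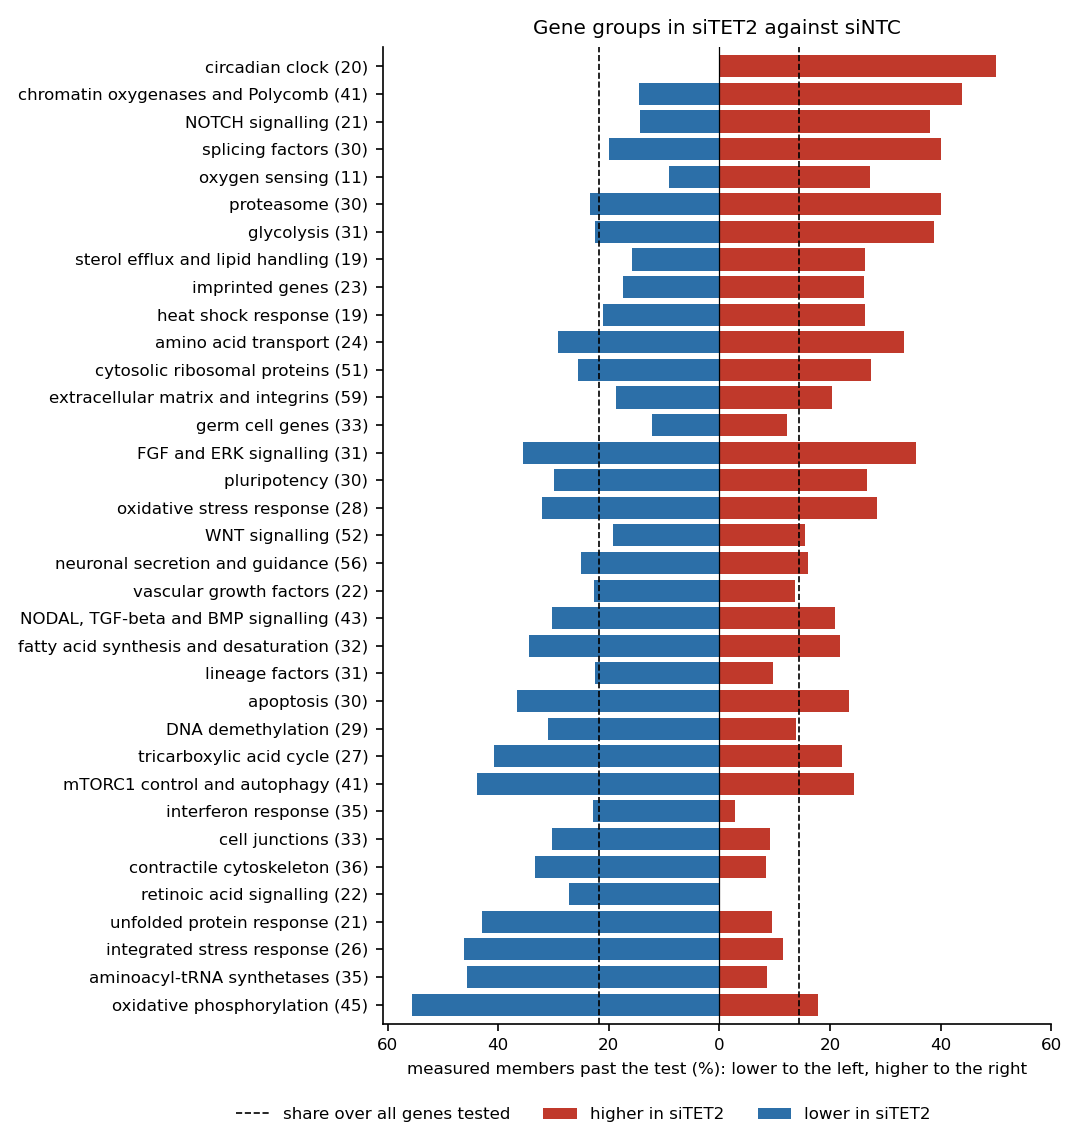
Share of the measured members of 35 gene lists that were higher (red, to the right) or lower (blue, to the left) in siTET2 than in siNTC at an adjusted p under 0.05. The number after each name counts measured members, and the dashed lines mark the shares over all genes tested, 14.4% higher and 21.8% lower; circadian clock genes had no lower and retinoic acid genes no higher member in the deposited normalization (3 after quantile normalization).

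The target itself was examined first, together with the other genes of DNA demethylation. TET2, on the brighter of its 2 clusters, was at 6.95 and 6.92 in siTET2 cells and 7.71 and 7.91 in siNTC cells. The groups did not overlap, and TET2 fell to 54.4% of the siNTC mean (47.1% to 62.8% at 95% confidence), with -0.88 ± 0.095, adjusted p = 9.74e-06. TET1, the most studied TET of pluripotent cells, fell as well, by a smaller amount (-0.30 ± 0.048, adjusted p = 0.000287), and TET3 was at 7.597 and 7.50 in siTET2 cells and 7.74 and 7.30 in siNTC cells, where the siNTC arrays enclosed the siTET2 arrays. Of the proteins that bind TET2, OGT, the transferase that adds N-acetylglucosamine to serine and threonine and is brought to chromatin by TETs, was at 10.03 and 10.01 in siTET2 cells and 10.41 and 10.40 in siNTC cells. HCFC1, a chromatin cofactor that OGT modifies and cleaves, was at 10.62 and 10.61 in siTET2 cells and 10.98 and 10.998 in siNTC cells. Both fell without overlap of the groups, OGT with -0.38 ± 0.041, adjusted p = 8.57e-06 and HCFC1 with -0.38 ± 0.038, adjusted p = 4.88e-06. CXXC4 and CXXC5, which supply the CXXC domain that TET2 lacks, had changes of -0.038 and -0.022, neither past the test. SIRT1, a deacetylase, rose (0.27 ± 0.041, adjusted p = 0.000163). In base excision repair, which replaces the oxidised bases, the glycosylase TDG had a change of -0.12 ± 0.10, adjusted p = 0.428, and its siNTC arrays, at 7.61 and 7.95, enclosed the siTET2 arrays. APEX1, the endonuclease that cuts the abasic site, fell (-0.29 ± 0.031, adjusted p = 7.97e-06), as did the scaffold XRCC1 (-0.29 ± 0.045, adjusted p = 0.000193), while the glycosylase NEIL3 rose (0.30 ± 0.049, adjusted p = 0.000297). The cytidine deaminase APOBEC3B rose (0.63 ± 0.11, adjusted p = 0.000629). Over the whole list, 29 genes were measured, of which 4 rose, 9 fell and the remaining 16 did not pass the test, and the median was -0.11.

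Genes for the other oxygenases of this chemistry moved in a mixed way, with more members higher than lower. In all, 31 of 32 listed oxygenases were measured, 15 were higher, 9 lower and the median was 0.16; the TETs, HIF hydroxylases, collagen hydroxylases and JmjC proteins were put together after their values were seen. Among the HIF hydroxylases, EGLN1, the main oxygen sensor that marks HIF for destruction, was at 8.90 and 8.92 in siTET2 cells and 8.36 and 8.18 in siNTC cells. It rose by 0.64 ± 0.069, adjusted p = 9.02e-06. EGLN3, its inducible relative, had a change of 0.21 ± 0.079, adjusted p = 0.0561. HIF1AN, which blocks the transactivation domain of HIF, fell (-0.29 ± 0.085, adjusted p = 0.0164), but was not past the test without siTET2 replicate 1 (-0.17, adjusted p = 0.223), siNTC replicate 1 (adjusted p = 0.0789), siNTC replicate 2 (adjusted p = 0.0545) or the intensity trend (adjusted p = 0.0556). VHL, the ubiquitin ligase subunit that binds hydroxylated HIF, rose (0.36 ± 0.075, adjusted p = 0.00216). The HIF1A transcript rose by 0.18 ± 0.045, adjusted p = 0.00747, and was not past the test without siTET2 replicate 1 (0.17, adjusted p = 0.0572), siNTC replicate 2 (0.12, adjusted p = 0.0789) or the intensity trend (adjusted p = 0.0739). Its partner ARNT and the second alpha subunit EPAS1 had changes of -0.017 and -0.049, not past the test.

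The hydroxylases of collagen split by isoform. PLOD2, the lysyl hydroxylase of collagen telopeptides, was at 9.92 and 9.98 in siTET2 cells and 8.76 and 8.66 in siNTC cells. P4HA2, a catalytic subunit of collagen prolyl 4-hydroxylase, was at 7.93 and 7.87 in siTET2 cells and 6.69 and 6.80 in siNTC cells. P4HA1, the other main catalytic subunit, was at 9.597 and 9.63 in siTET2 cells and 8.73 and 8.58 in siNTC cells. None of these groups overlapped, and all 3 rose: PLOD2 by 1.24 ± 0.058, adjusted p = 7.62e-09, P4HA2 by 1.16 ± 0.082, adjusted p = 2.29e-07 and P4HA1 by 0.96 ± 0.063, adjusted p = 1.26e-07. The relatives PLOD1 and PLOD3, which hydroxylate mainly the helical part, fell (-0.49 ± 0.046, adjusted p = 2.51e-06 and -0.26 ± 0.063, adjusted p = 0.00508). Of the JmjC histone demethylase family 11 of 18 were higher and 3 lower. KDM3A, a demethylase of histone H3 lysine 9, was at 10.37 and 10.32 in siTET2 cells and 9.44 and 9.29 in siNTC cells, and its rise was the largest of the family (0.98 ± 0.053, adjusted p = 2.51e-08). The lysine 27 demethylases KDM6A (0.39 ± 0.063, adjusted p = 0.000306) and KDM6B (0.42 ± 0.071, adjusted p = 0.000441) rose too. JMJD6 (0.59 ± 0.083, adjusted p = 9.23e-05), KDM2A, KDM2B and KDM4B (0.32 to 0.35) were also higher. KDM4D, a lysine 9 demethylase with testis expression, fell (-0.85 ± 0.14, adjusted p = 0.000269), and so did PHF8 (-0.29 ± 0.045, adjusted p = 0.000194). In the Polycomb complexes, which write and bind lysine 27 methylation, JARID2, a JmjC protein without demethylase activity that recruits PRC2, was at 12.13 and 12.14 in siTET2 cells and 11.67 and 11.60 in siNTC cells and rose (0.50 ± 0.033, adjusted p = 1.27e-07). MTF2, another recruiting subunit, rose (0.32 ± 0.040, adjusted p = 3.33e-05), whereas its paralogue PHF19 (-0.55 ± 0.089, adjusted p = 0.000293) and the core subunit EED (-0.31 ± 0.047, adjusted p = 0.000163) fell. PRC1 subunits PCGF3 and YAF2 rose (0.56 and 0.48) and PCGF2 fell (-0.34). The list of chromatin oxygenases and Polycomb as a whole had 18 of 41 members higher and 6 lower, and 15 of 37 and 6 of 37 without chromosomes 2, 7 and 15.

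**Figure D2:**
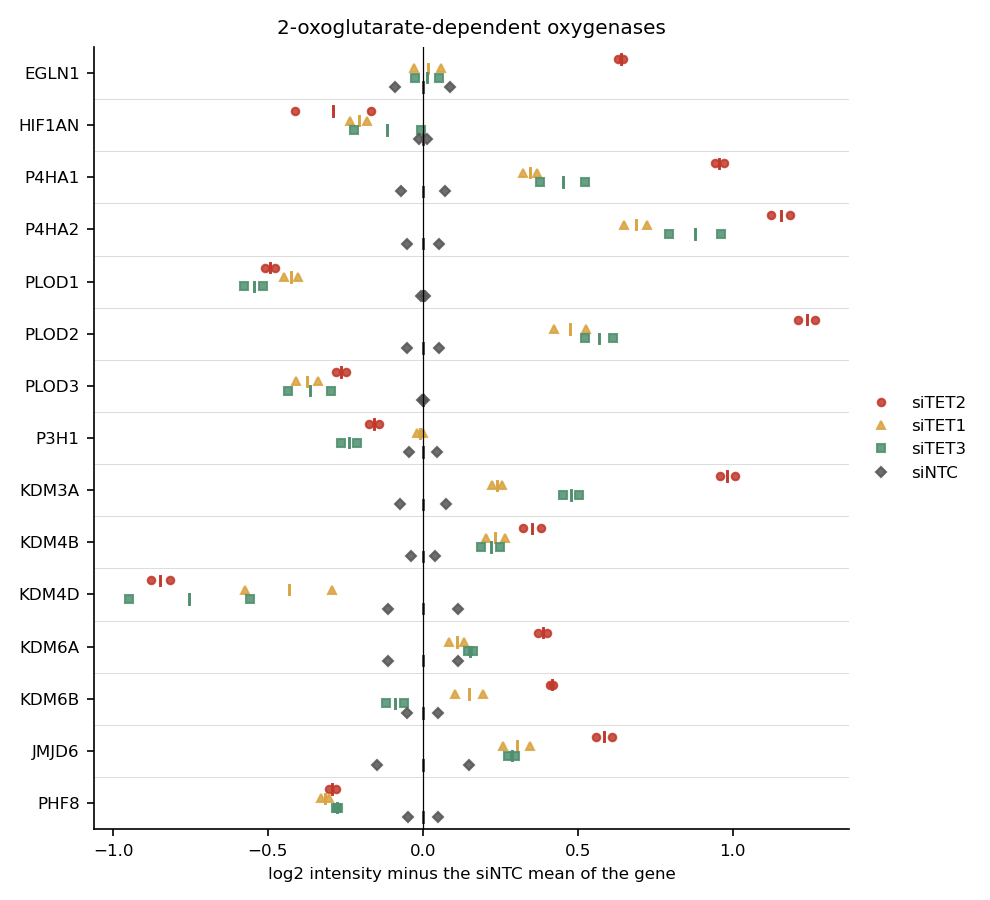
Log2 intensity of 15 oxygenase genes on each array, minus the siNTC mean of the gene (points, arrays; bars, group means; siTET2, siTET1, siTET3 and siNTC from top to bottom within a gene). The siTET2 arrays of EGLN1, P4HA1, PLOD2 and KDM3A lie to the right of every other array, while PLOD1, KDM4D and PHF8 lie left of siNTC in all depletions.

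EGLN1, KDM3A, KDM6A, KDM6B, P4HA1, P4HA2 and PLOD2 were also higher in siTET2 than in siTET1 and than in siTET3. That is 7 of the 31 oxygenases, beside 1.19% of all genes. The 31 were put together after their values were seen, so these shares are no test. Over all genes, 220 were higher in both contrasts, and 78 without an intensity trend. Some of the genes described here are known targets of HIF, which can bind the core sequence ACGTG. Only this form of the core was searched, so HIF sites of another form were not counted. The promoter stretches around this core are shown for genes of that kind whose RefSeq promoter holds it, since the values of EGLN1, LOX, BHLHE40, DDIT4, P4HA1, PLOD2, HK2 and BNIP3 recur below. They come from RefSeq promoters of the build GRCh38.p14, 5′ to 3′ on the strand of the gene, with the core or its reverse complement CACGT in capitals.
EGLN1: gggccgtggtgtACGTGcagagcgcgcaga
P4HA1: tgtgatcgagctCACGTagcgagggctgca
PLOD2: caaacagtccagACGTGgggcccaggaggg
LOX: gtaactttgcaaACGTGccagaaagtttaa
BHLHE40: cacagggtagaaCACGTagctccaacccac
DDIT4: agaacgttgcttACGTGcgcccggagtcca
HK2: aatgggcgtgcgCACGTcactgatccggag
BNIP3: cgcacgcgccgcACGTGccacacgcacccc
The EGLN1 stretch lies at chr1:231422283-231422312 on the minus strand, its core 13 bases before the annotated start. The P4HA1 stretch lies at chr10:73096935-73096964 on the minus strand, its core 86 bases before the annotated start. The PLOD2 stretch lies at chr3:146161313-146161342 on the minus strand, its core 146 bases before the annotated start. The LOX stretch lies at chr5:122078284-122078313 on the minus strand, its core 42 bases before the annotated start. The BHLHE40 stretch lies at chr3:4979276-4979305 on the plus strand, its core 149 bases before the annotated start. The DDIT4 stretch lies at chr10:72273787-72273816 on the plus strand, its core 125 bases before the annotated start. The HK2 stretch lies at chr2:74834067-74834096 on the plus strand, its core 48 bases before the annotated start. The BNIP3 stretch lies at chr10:131982039-131982068 on the minus strand, its core 133 bases before the annotated start. The window searched held 250 bases before and 50 after the annotated start, on both strands, and the letters CACGTG satisfy the core on each strand at once. Counted over both strands, LOX and BHLHE40 held 4 matches each, PLOD2, HK2 and BNIP3 2 each and the other 3 genes 1, and the match nearest to the start on its upstream side is shown. The core was present in 21.6% of 27305 promoters of the table and in 24.0% of 14239 promoters of the genes tested. Of the 220 genes higher in siTET2 than in both other depletions only 133 had a promoter in the table, and 48 of these (36.1%) held the core. Of the 235 genes lower than in both, 218 had one, and 62 of these (28.4%) held it. No match to ACGTG was found in the window of KDM3A, P4HA2, SLC2A1, PDK1, PFKFB3, PFKFB4 or STC2, and HIF sites of another form were not searched there. A match is a description of the sequence, and binding was not measured here.

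Of 31 measured glycolysis genes 12 rose, 7 fell and 12 did neither at this threshold, and their median change was 0.062. PFKFB3 and PFKFB4 make the allosteric activator of phosphofructokinase. PFKFB3 was at 9.83 and 9.79 in siTET2 cells and 7.95 and 7.95 in siNTC cells, and PFKFB4 at 8.15 and 8.04 in siTET2 cells and 6.28 and 6.16 in siNTC cells. The arrays of the groups lay far apart in each, and the changes were 1.86 ± 0.053, adjusted p = 1.05e-10 for PFKFB3 and 1.88 ± 0.094, adjusted p = 1.34e-08 for PFKFB4. Their paralogue PFKFB2 fell (-0.50 ± 0.092, adjusted p = 0.000718). The glucose transporter SLC2A1 was at 12.03 and 12.07 in siTET2 cells and 11.35 and 11.32 in siNTC cells, and hexokinase 2, HK2, at 9.68 and 9.74 in siTET2 cells and 8.91 and 8.79 in siNTC cells, again without overlap (0.72 ± 0.035, adjusted p = 9.52e-09 and 0.86 ± 0.061, adjusted p = 2.37e-07). Hexokinase 1, HK1, which is expressed in most tissues, fell (-0.26 ± 0.052, adjusted p = 0.00139), and so did the muscle phosphofructokinase PFKM (-0.55 ± 0.076, adjusted p = 7.72e-05). Of the shared enzymes of the pathway, ALDOA, ALDOC, PGK1 and ENO2 rose by 0.29 to 0.46, TPI1 fell (-0.22), and GAPDH, ENO1 and PFKL were not past the test. LDHA, which makes lactate, was at 12.47 and 12.49 in siTET2 cells and 12.47 and 12.48 in siNTC cells, with no difference past the test (0.0034 ± 0.030, adjusted p = 0.949). PDK1, the kinase that switches off pyruvate dehydrogenase, rose (0.48 ± 0.054, adjusted p = 1.35e-05).

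Of 27 measured genes of the tricarboxylic acid cycle 11 were lower and 6 higher, and without chromosomes 2, 7 and 15 the counts were 8 and 2 of 18. Of 5 genes of the pyruvate dehydrogenase complex, PDHB, DLAT and PDHX fell by 0.51, 0.65 and 0.51 on the log2 scale, DLD rose (0.20 ± 0.044, adjusted p = 0.00271) and PDHA1 was not past the test (0.046). DLAT was at 9.55 and 9.61 in siTET2 cells and 10.27 and 10.20 in siNTC cells. Pyruvate carboxylase, PC, which refills the cycle with oxaloacetate, was at 7.48 and 7.44 in siTET2 cells and 8.24 and 8.29 in siNTC cells, and fell (-0.81 ± 0.075, adjusted p = 2.48e-06). IDH3A and IDH3B, subunits of the isocitrate dehydrogenase that makes 2-oxoglutarate, fell (-0.63 ± 0.050, adjusted p = 5.68e-07 and -0.65 ± 0.057, adjusted p = 1.49e-06), while their partner IDH3G had a change of 0.049, not past the test. SDHD, a membrane anchor of succinate dehydrogenase, was at 11.26 and 11.28 in siTET2 cells and 12.21 and 12.21 in siNTC cells. Its groups did not overlap, and it fell (-0.94 ± 0.034, adjusted p = 8.95e-10), whereas the catalytic subunit SDHA was not past the test (0.06). The malate dehydrogenase MDH2 and the citrate carrier SLC25A1 rose (0.27 and 0.29).

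In oxidative phosphorylation 25 of 45 measured genes were lower and 8 higher, with a median of -0.15, and 19 and 8 of 39 without chromosomes 2, 7 and 15. ATP synthase had 9 of 11 subunits lower and complex III 3 of 5 lower with none higher, while complex IV had 4 lower and 3 higher of 10. NDUFB3, an accessory subunit of complex I, was at 8.66 and 8.54 in siTET2 cells and 9.99 and 9.93 in siNTC cells. NDUFA2, also of complex I, was at 10.90 and 10.85 in siTET2 cells and 12.01 and 12.01 in siNTC cells. COX8A, a small subunit of cytochrome oxidase, was at 10.89 and 10.93 in siTET2 cells and 11.89 and 11.92 in siNTC cells. All 3 were lower on each siTET2 array than on either siNTC array, with -1.36 ± 0.055, adjusted p = 2.08e-09 for NDUFB3, -1.13 ± 0.035, adjusted p = 1.88e-10 for NDUFA2 and an adjusted p of 2.59e-09 for COX8A. COX6B1, another subunit of complex IV, was not on the list and fell (-1.25 ± 0.048, adjusted p = 1.32e-09). Of the subunits that rose, COX6C was at 9.26 and 9.24 in siTET2 cells and 8.39 and 8.39 in siNTC cells (0.86 ± 0.059, adjusted p = 1.66e-07) and COX7A2 changed by 0.55 ± 0.041, adjusted p = 3.11e-07. The core subunits NDUFS1 and NDUFV2 had changes of -0.28 (past the test) and 0.056 (not past it). TIMM8B, an import chaperone of the mitochondrial intermembrane space, which was outside the lists, was at 9.16 and 9.24 in siTET2 cells and 11.20 and 11.49 in siNTC cells and fell (-2.15 ± 0.075, adjusted p = 5.54e-10). COX8A and TIMM8B lie on chromosome 11, which the counts without chromosomes 2, 7 and 15 kept. Only nuclear genes are described here.

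**Figure D3:**
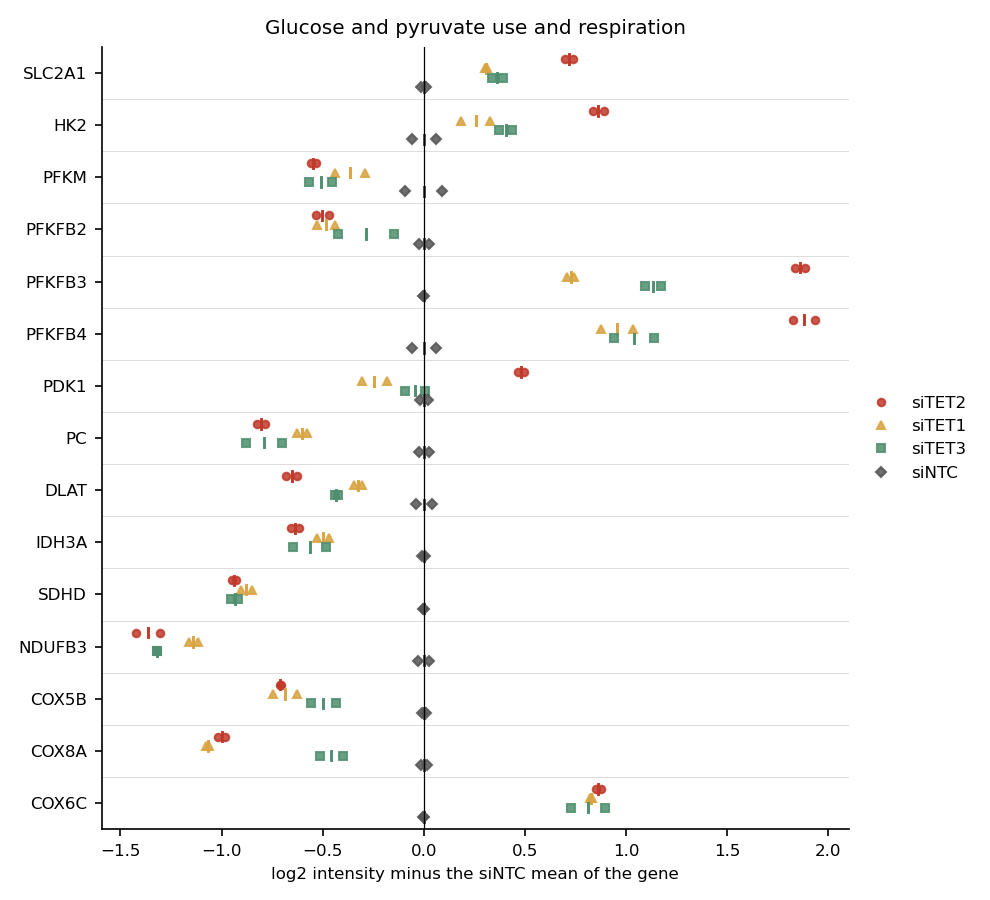
Log2 intensity of 15 genes of glucose use, pyruvate use and respiration on each array, minus the siNTC mean of the gene (points, arrays; bars, group means; siTET2, siTET1, siTET3 and siNTC from top to bottom within a gene). PFKFB3 and PFKFB4 lie near 1.9 in siTET2 and farther right than in the other depletions, and NDUFB3, SDHD and PC lie left of siNTC in every depletion.

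The circadian clock is a loop in which CLOCK and BMAL1 activate the period, cryptochrome and BHLHE40 genes that then repress them. No clock gene fell. Of 20 measured members 10 were higher, a count of 5 without siTET2 replicate 2. BHLHE40, a repressor that is also induced by hypoxia, was at 8.17 and 8.32 in siTET2 cells and 5.99 and 5.81 in siNTC cells, and its paralogue BHLHE41 at 7.75 and 7.75 in siTET2 cells and 5.98 and 6.09 in siNTC cells. Neither overlapped between groups, with 2.35 ± 0.093, adjusted p = 1.77e-09 and 1.71 ± 0.083, adjusted p = 9.52e-09. The nuclear receptor RORA, an activator of BMAL1, rose (0.60 ± 0.091, adjusted p = 0.000172), and so did NFIL3, a repressor of output genes (0.42 ± 0.071, adjusted p = 0.000398). The cryptochromes CRY1 and CRY2 had changes of -0.087 and -0.19 and the nuclear receptor NR1D1 of -0.15, none past the test.

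Of 41 measured genes of mTORC1 control and autophagy 10 were higher and 18 lower, with a median of -0.096. DDIT4, an inhibitor of mTORC1 that responds to hypoxia and stress, was at 9.01 and 9.11 in siTET2 cells and 7.15 and 6.94 in siNTC cells. It was the member of the mTORC1 and autophagy list with the largest change (2.01 ± 0.081, adjusted p = 2.00e-09). Other inhibitors fell, DEPTOR (-0.56 ± 0.10, adjusted p = 0.000821), AKT1S1 (-0.39 ± 0.078, adjusted p = 0.00138) and TSC2 (-0.29 ± 0.048, adjusted p = 0.000322). The translational repressor EIF4EBP1 fell as well (-0.55 ± 0.059, adjusted p = 8.57e-06). BNIP3, a mitochondrial receptor for autophagy and a known HIF target, was at 12.70 and 12.71 in siTET2 cells and 11.48 and 11.37 in siNTC cells, with no overlap and a rise of 1.28 ± 0.038, adjusted p = 1.43e-10. Its relative BNIP3L rose (0.59 ± 0.042, adjusted p = 2.54e-07), while PINK1, a kinase that starts the other route of mitophagy, fell (-0.45 ± 0.068, adjusted p = 0.000153). Of 20 autophagy genes 4 were higher and 9 lower, among them GABARAPL1 (-0.51 ± 0.039, adjusted p = 4.49e-07), ATG13 (-0.40 ± 0.048, adjusted p = 2.43e-05) and BECN1 (-0.37 ± 0.066, adjusted p = 0.000528).

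The integrated stress response, in which kinases of the initiation factor eIF2 raise ATF4 and its targets, had 12 of 26 measured members lower and 3 higher, with a median of -0.16. CHAC1, a glutathione-degrading target of ATF4, was at 6.62 and 6.83 in siTET2 cells and 8.01 and 7.98 in siNTC cells. ASNS, asparagine synthetase, was at 8.83 and 8.90 in siTET2 cells and 9.38 and 9.57 in siNTC cells, and PSAT1, an enzyme of serine synthesis, at 10.61 and 10.69 in siTET2 cells and 11.27 and 11.22 in siNTC cells. These 3 transcripts fell without overlap (-1.28 ± 0.10, adjusted p = 5.89e-07, -0.61 ± 0.064, adjusted p = 7.25e-06 and -0.60 ± 0.040, adjusted p = 1.27e-07), as did the transcription factors CEBPG (-0.55 ± 0.066, adjusted p = 2.11e-05) and CEBPB (-0.45 ± 0.062, adjusted p = 8.61e-05). The cystathionine lyase CTH was lower too (-0.35 ± 0.046, adjusted p = 5.59e-05). Against this direction PPP1R15A, which directs dephosphorylation of eIF2, rose (0.63 ± 0.080, adjusted p = 4.16e-05), and STC2, a secreted glycoprotein induced by stress and by hypoxia, was at 9.18 and 9.17 in siTET2 cells and 8.26 and 8.03 in siNTC cells and rose by 1.03 ± 0.072, adjusted p = 2.07e-07. Of 19 cytosolic aminoacyl-tRNA synthetases, which charge tRNA, 10 were lower and 1 higher. The changes were modest, with SARS1 at -0.38 ± 0.041, adjusted p = 8.23e-06, RARS1 at -0.34 ± 0.043, adjusted p = 3.19e-05 and GARS1, the higher one, at 0.21 ± 0.030, adjusted p = 9.57e-05. The 16 mitochondrial synthetases had 6 lower, such as SARS2 (-0.53 ± 0.075, adjusted p = 0.000103), and 2 higher. In the unfolded protein response of the endoplasmic reticulum 9 of 21 were lower, including the factor XBP1 (-0.58 ± 0.047, adjusted p = 7.64e-07) and the chaperone HYOU1 (-0.52 ± 0.064, adjusted p = 2.92e-05), and 2 higher, CANX and SEL1L (0.28 and 0.33).

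Amino acid carriers moved both ways, with 8 of 24 higher and 7 lower. The taurine carrier SLC6A6 was at 11.17 and 11.25 in siTET2 cells and 10.11 and 10.17 in siNTC cells and rose (1.07 ± 0.048, adjusted p = 5.07e-09), and the glutamate carrier SLC1A3 was at 10.47 and 10.45 in siTET2 cells and 9.54 and 9.63 in siNTC cells and rose (0.88 ± 0.045, adjusted p = 1.78e-08). The glycine carrier SLC6A9 fell (-0.68 ± 0.082, adjusted p = 2.67e-05), along with SLC3A2, the heavy chain shared by several carriers (-0.29 ± 0.034, adjusted p = 2.23e-05), and the cationic carrier SLC7A1 (-0.31 ± 0.058, adjusted p = 0.000833). The glutamine carrier SLC38A5, outside the list, was not above background on the siTET2 arrays and fell at least 3.003-fold. Without siTET2 replicate 2 or siNTC replicate 2 the number of higher carriers was 5.

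FGF and ERK signalling, which is active in embryonal carcinoma cells and restrained by feedback inhibitors, had 11 of 31 measured members higher and 11 lower. The ligand FGF2 was at 8.74 and 8.74 in siTET2 cells and 9.76 and 9.66 in siNTC cells. The ERK phosphatase DUSP6, a readout of the pathway, was at 6.31 and 6.39 in siTET2 cells and 8.14 and 8.16 in siNTC cells. Both fell on every siTET2 array (-0.97 ± 0.052, adjusted p = 2.21e-08 and -1.80 ± 0.089, adjusted p = 1.18e-08). Of 13 feedback inhibitors, 5 were higher and 5 lower. IL17RD (0.73 ± 0.052, adjusted p = 2.35e-07), DUSP1 (0.57 ± 0.062, adjusted p = 9.21e-06), SPRY2 (0.48 ± 0.036, adjusted p = 3.57e-07) and SPRY1 (0.48 ± 0.093, adjusted p = 0.00112) rose, and SPRED1 fell (-0.51 ± 0.064, adjusted p = 3.13e-05). The receptor FGFR1 rose slightly (0.26 ± 0.034, adjusted p = 5.45e-05) and FGFR3 fell (-0.32 ± 0.070, adjusted p = 0.00248). Of the ETS factors downstream, ETV1 rose (0.56 ± 0.046, adjusted p = 9.26e-07), ELK1 fell (-0.53 ± 0.066, adjusted p = 3.33e-05) and ETV5 was not past the test (0.072). The founding family members ETS1 and FLI1 were outside the list: ETS1 was at 5.77 and 5.60 in siTET2 cells and 7.62 and 7.64 in siNTC cells and fell (-1.95 ± 0.094, adjusted p = 1.01e-08), and FLI1 fell at least 2.78-fold, with both siTET2 arrays below background. Without siTET2 replicate 1 the number of lower members was 7.

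In the NODAL, TGF-beta and BMP pathways 9 of 43 measured members were higher and 13 lower, and 8 and 7 of 34 without chromosomes 2, 7 and 15. SMAD3, the transducer of activin and TGF-beta signals, was at 8.22 and 8.25 in siTET2 cells and 9.10 and 9.21 in siNTC cells and fell (-0.92 ± 0.061, adjusted p = 1.28e-07). The shared SMAD4 fell less (-0.40 ± 0.040, adjusted p = 4.64e-06). ACVR1, a receptor for BMPs and activins, was at 7.47 and 7.44 in siTET2 cells and 8.29 and 8.44 in siNTC cells and fell (-0.91 ± 0.075, adjusted p = 8.86e-07), and the BMP antagonist GREM1 was at 5.86 and 5.89 in siTET2 cells and 6.81 and 6.82 in siNTC cells and fell (-0.94 ± 0.10, adjusted p = 8.05e-06). SMAD3 and GREM1 lie on chromosome 15 and ACVR1 on chromosome 2. The antagonist FST, on chromosome 5, fell too (-0.55 ± 0.082, adjusted p = 0.000153). GDF3, a ligand of this family that marks embryonal carcinoma, rose (0.37 ± 0.032, adjusted p = 1.59e-06), as did the target ID2 (0.43 ± 0.037, adjusted p = 1.37e-06), and the stress-induced GDF15 rose at least 1.67-fold, with only 1 of the siNTC arrays above background. Without siTET2 replicate 2 or siNTC replicate 2 the number of higher members was 5.

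NOTCH signalling, by which ligand and receptor on adjacent cells control cell fate, had 8 of 21 measured members higher and 3 lower. Its counts were sensitive to single arrays, with 5 higher without siTET2 replicate 1 and 4 without siTET2 replicate 2, and 0, 1 and 1 lower without siTET2 replicate 1, siNTC replicate 1 and siNTC replicate 2. The ligand DLL1 was at 6.35 and 6.30 in siTET2 cells and 5.64 and 5.66 in siNTC cells and rose (0.68 ± 0.12, adjusted p = 0.000543). JAG2, another ligand, rose (0.33 ± 0.076, adjusted p = 0.00413), and so did the receptor NOTCH3 (0.39 ± 0.073, adjusted p = 0.000907). In WNT signalling 8 of 52 were higher and 10 lower, shares close to those over all genes. The secreted antagonist FRZB was at 6.05 and 6.03 in siTET2 cells and 7.17 and 7.32 in siNTC cells and fell (-1.21 ± 0.11, adjusted p = 2.25e-06), while its relative SFRP2 rose (0.46 ± 0.034, adjusted p = 2.80e-07). The largest decrease among the antagonists, -2.61, was in a gene not named here. Among the frizzled receptors FZD3 rose (0.68 ± 0.056, adjusted p = 8.49e-07) and FZD2, FZD5 and FZD8 fell (-0.71, -0.52 and -0.56). TCF7L1, a repressor of WNT targets in pluripotent cells, fell (-0.70 ± 0.046, adjusted p = 1.21e-07), and beta-catenin itself, CTNNB1, rose (0.33 ± 0.033, adjusted p = 5.43e-06).

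No retinoic acid gene rose, although 3 did after quantile normalization. Of 22 measured members, 11 of them above background, 6 were lower. The retinol receptor STRA6 was at 7.35 and 7.35 in siTET2 cells and 8.23 and 8.31 in siNTC cells. MEIS2, a homeobox target, was at 6.54 and 6.54 in siTET2 cells and 7.51 and 7.43 in siNTC cells. NRIP1, a nuclear receptor corepressor induced by retinoic acid, was at 8.95 and 9.02 in siTET2 cells and 9.67 and 9.68 in siNTC cells. None of these groups overlapped (-0.92 ± 0.070, adjusted p = 4.04e-07, -0.93 ± 0.085, adjusted p = 2.26e-06 and -0.69 ± 0.066, adjusted p = 3.18e-06). CYP26A1, the enzyme that degrades retinoic acid, fell (-0.55 ± 0.11, adjusted p = 0.00117), and the receptor RXRG fell at least 1.20-fold to a level not above background. Another member, the synthesising enzyme ALDH1A3, fell (-0.54 ± 0.11, adjusted p = 0.00172), but not when the mean of its clusters was used (-0.18, adjusted p = 0.192). STRA6, MEIS2 and ALDH1A3 lie on chromosome 15. Without chromosomes 2, 7 and 15 the count of lower members was 3 of 15, no more than the share of 21.8% over all genes.

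**Figure D4:**
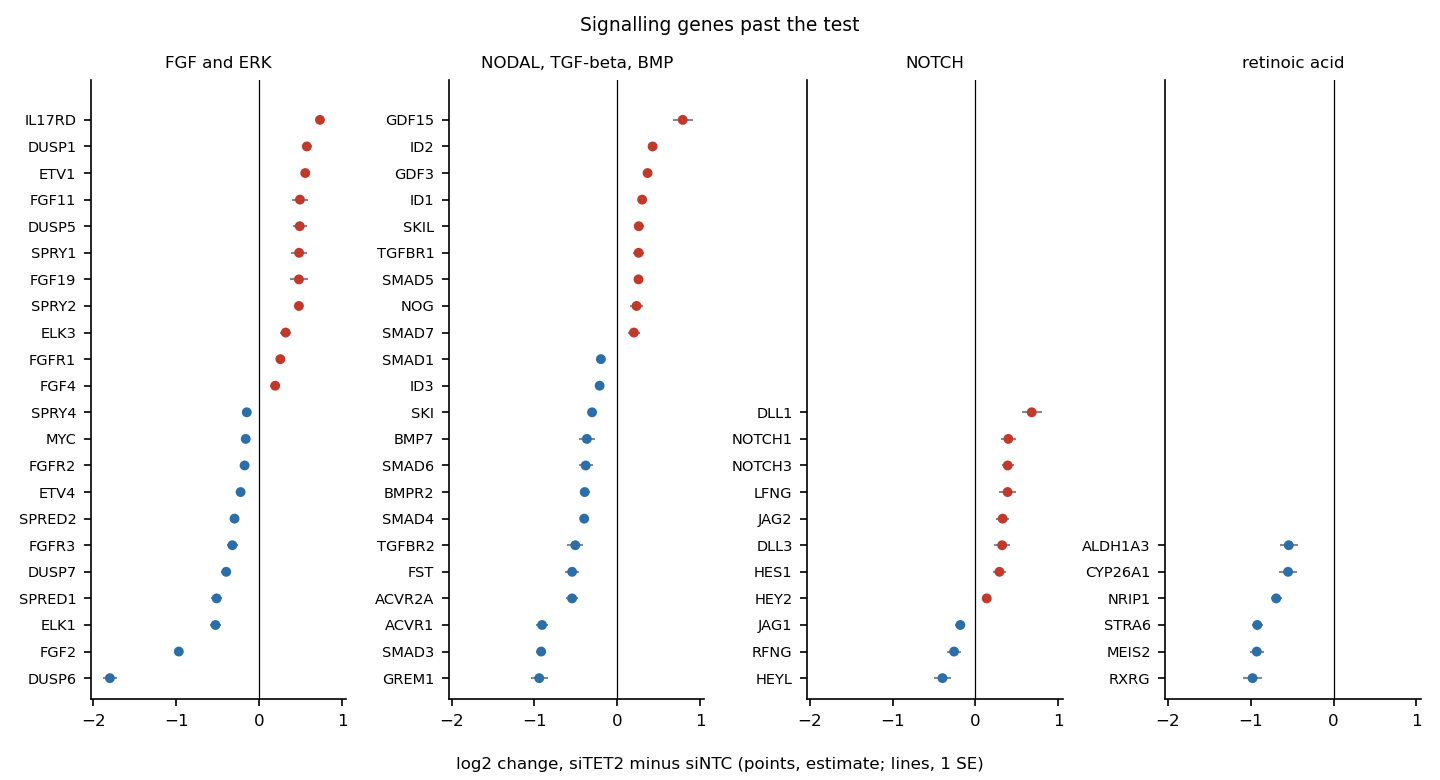
Log2 change (siTET2 minus siNTC; points, estimates; lines, 1 standard error) of the members of 4 signalling lists that were past the test, red for higher and blue for lower. FGF and ERK genes split into 11 higher and 11 lower, NOTCH genes lie mostly right of 0 and all 6 retinoic acid genes lie left of it.

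Pluripotency genes did not move one way, with 8 of 30 measured members higher and 9 lower. The factors SOX2 and SALL4 were slightly lower (-0.13 ± 0.028, adjusted p = 0.00332 and -0.21 ± 0.040, adjusted p = 0.000926), SOX2 not past the test without the intensity trend (adjusted p = 0.0911). OTX2, a factor of the primed state and the forebrain, was at 10.61 and 10.61 in siTET2 cells and 11.09 and 11.16 in siNTC cells and fell (-0.52 ± 0.045, adjusted p = 1.48e-06). The surface proteins EPCAM and PODXL, markers of undifferentiated cells, were at 9.01 and 9.04 in siTET2 cells and 9.81 and 9.86 in siNTC cells for EPCAM and at 11.69 and 11.67 in siTET2 cells and 12.36 and 12.32 in siNTC cells for PODXL. Both fell (-0.81 ± 0.057, adjusted p = 2.07e-07 and -0.66 ± 0.035, adjusted p = 2.16e-08). Of genes tied to the naive state, DPPA3, which protects maternal methylation marks in the zygote, was at 12.82 and 12.84 in siTET2 cells and 11.27 and 11.22 in siNTC cells and rose (1.58 ± 0.032, adjusted p = 6.33e-12). NR5A2 rose (0.57 ± 0.038, adjusted p = 1.53e-07) and KLF4 rose (0.40 ± 0.065, adjusted p = 0.000266), while ZFP42 fell (-0.32 ± 0.052, adjusted p = 0.000332).

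Of 31 measured lineage factors 19 were above background, 3 were higher, or 1 without siTET2 replicate 2 or siNTC replicate 2, and 7 were lower. In the neuroectoderm group LHX2, a homeobox factor of the forebrain and eye, was at 5.50 and 5.58 in siTET2 cells and 6.70 and 6.89 in siNTC cells, and fell (-1.26 ± 0.10, adjusted p = 9.49e-07). ZIC2 and the intermediate filament gene NES fell (-0.54 and -0.42). In the trophectoderm group HAND1 was at 6.04 and 6.15 in siTET2 cells and 7.06 and 7.05 in siNTC cells and fell (-0.96 ± 0.098, adjusted p = 5.75e-06), and TEAD4 and TFAP2A fell (-0.66 and -0.52). Of mesendoderm genes the chemokine receptor CXCR4 was at 7.24 and 7.07 in siTET2 cells and 6.26 and 6.02 in siNTC cells and rose (1.01 ± 0.11, adjusted p = 1.04e-05). Germ cell genes had 4 of 33 higher and 4 lower, with 14 above background. The Piwi gene PIWIL1 rose at least 1.49-fold, with 1 siNTC array not above background. The largest rise of the list, 2.37, was in a gene not named here. The recombinase DMC1 fell (-0.73 ± 0.097, adjusted p = 5.62e-05), as did the piRNA cofactor GTSF1 (-0.50 ± 0.083, adjusted p = 0.000367) and the RNA-binding DAZL (-0.57 ± 0.10, adjusted p = 0.0006).

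Of 59 measured genes of the extracellular matrix and integrins 12 were higher and 11 lower, and 5 of 12 matrix-processing enzymes were higher and 3 lower. LOX, which cross-links collagen, was at 7.78 and 7.94 in siTET2 cells and 5.47 and 5.38 in siNTC cells, and rose (2.43 ± 0.095, adjusted p = 1.61e-09) beside the collagen hydroxylases described above. The integrin subunits ITGA5 and ITGB8 were at 7.64 and 7.41 in siTET2 cells and 6.24 and 6.43 in siNTC cells for ITGA5 and at 7.85 and 7.88 in siTET2 cells and 6.48 and 6.49 in siNTC cells for ITGB8. They rose (1.19 ± 0.098, adjusted p = 9.21e-07 and 1.38 ± 0.076, adjusted p = 2.86e-08), as did ITGA2 (0.78 ± 0.11, adjusted p = 6.73e-05), whereas ITGB1 and ITGAV fell (-0.45 and -0.38). THBS1, a matricellular glycoprotein on chromosome 15, fell (-0.96 ± 0.088, adjusted p = 2.23e-06), along with COL18A1 (-0.95 ± 0.092, adjusted p = 3.48e-06), SPARC (-0.62 ± 0.059, adjusted p = 3.02e-06) and fibronectin, FN1 (-0.46 ± 0.047, adjusted p = 5.46e-06). LAMA1, a laminin chain of early basement membranes, rose (0.65 ± 0.061, adjusted p = 2.72e-06). Without chromosomes 2, 7 and 15 the counts were 10 and 7 of 44.

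The contractile cytoskeleton had 12 of 36 measured members lower and 3 higher. SRF, the factor that drives actin and smooth muscle genes, was at 9.44 and 9.52 in siTET2 cells and 10.27 and 10.26 in siNTC cells. Tropomyosin 1, TPM1, was at 8.76 and 8.79 in siTET2 cells and 9.54 and 9.67 in siNTC cells, and tropomyosin 2, TPM2, at 8.34 and 8.19 in siTET2 cells and 9.18 and 9.21 in siNTC cells. All were lower on each siTET2 array (-0.79 ± 0.047, adjusted p = 5.02e-08, -0.83 ± 0.059, adjusted p = 2.59e-07 and -0.93 ± 0.067, adjusted p = 2.71e-07), and CNN2, CNN3, TAGLN2 and VIM fell by 0.22 to 0.64 on the log2 scale. TAGLN3, a neuronal relative, rose (0.55 ± 0.072, adjusted p = 4.90e-05). Junction genes had 10 of 33 lower and 3 higher. CDH6, a cadherin, was at 10.88 and 10.90 in siTET2 cells and 11.76 and 11.69 in siNTC cells and fell (-0.84 ± 0.038, adjusted p = 5.64e-09), CLDN7 fell (-0.79 ± 0.098, adjusted p = 3.03e-05) and the desmosomal DSG2 and DSP fell (-0.42 and -0.43), while CLDN1 and CDH11 rose (0.50 and 0.72). RAB25, a GTPase of epithelial recycling endosomes, was at 7.82 and 7.66 in siTET2 cells and 9.43 and 9.44 in siNTC cells and fell (-1.70 ± 0.098, adjusted p = 3.80e-08).

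Genes of axon guidance and secretion had 9 of 56 higher and 14 lower, and 8 and 7 of 42 without chromosomes 2, 7 and 15. The ephrins split: EFNA3 was at 8.20 and 8.34 in siTET2 cells and 7.05 and 6.70 in siNTC cells and rose (1.396 ± 0.12, adjusted p = 9.98e-07), EFNA4 rose (0.77 ± 0.050, adjusted p = 1.15e-07), and EFNA5 fell (-0.64 ± 0.050, adjusted p = 5.68e-07). Their receptors EPHA3, EPHA4 and EPHA7 fell (-0.93, -0.52 and -0.69), and EPHB3 rose (0.64 ± 0.093, adjusted p = 0.000126). The semaphorin SEMA5A rose at least 2.29-fold, with 1 siNTC array not above background, and SEMA3A fell (-0.33 ± 0.054, adjusted p = 0.000355). SCG5, a chaperone of prohormone convertase, fell (-1.005 ± 0.077, adjusted p = 4.56e-07) and lies on chromosome 15. The largest decrease among the secretory granule genes, -2.33, was in another gene, not named here. Among vascular factors VEGFA, the main angiogenic ligand and a HIF target, was at 8.37 and 8.34 in siTET2 cells and 7.25 and 7.35 in siNTC cells and rose (1.06 ± 0.070, adjusted p = 1.31e-07). PDGFA rose (0.61 ± 0.073, adjusted p = 2.49e-05). Adrenomedullin, ADM, another hypoxia-induced peptide, was at 9.95 and 9.95 in siTET2 cells and 10.53 and 10.46 in siNTC cells and fell (-0.55 ± 0.049, adjusted p = 1.99e-06). The endothelin receptor EDNRB was at 7.04 and 7.01 in siTET2 cells and 8.37 and 8.17 in siNTC cells and fell (-1.25 ± 0.093, adjusted p = 3.48e-07). A larger decrease, -2.90, was in a receptor of the list not named here. The group had 3 of 22 higher and 5 lower, or 8 lower without siNTC replicate 2.

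Lipid genes changed in opposite senses. ABCA1, the cholesterol exporter induced by LXR, was at 8.37 and 8.44 in siTET2 cells and 6.28 and 6.42 in siNTC cells, whereas its acceptor apolipoprotein APOE was at 8.46 and 8.47 in siTET2 cells and 9.21 and 9.27 in siNTC cells. ABCA1 rose (2.06 ± 0.073, adjusted p = 6.51e-10) and APOE fell (-0.77 ± 0.058, adjusted p = 3.79e-07). Of the lipid droplet proteins HILPDA, a HIF target that inhibits lipolysis, was at 9.66 and 9.73 in siTET2 cells and 8.49 and 8.35 in siNTC cells and rose (1.28 ± 0.059, adjusted p = 7.21e-09), PLIN2 rose (0.81 ± 0.057, adjusted p = 2.37e-07) and the lipase PNPLA2 fell (-0.58 ± 0.069, adjusted p = 2.36e-05). INSIG2, which holds back the SREBP factors, was at 8.57 and 8.56 in siTET2 cells and 7.70 and 7.42 in siNTC cells and rose (1.002 ± 0.085, adjusted p = 1.13e-06), and SREBF1 itself rose (0.55 ± 0.081, adjusted p = 0.000136). The desaturases FADS1, FADS2 and FADS3 fell (-0.42, -0.41 and -0.70), with fatty acid synthase, FASN, at -0.29 ± 0.038, adjusted p = 5.72e-05 and the mitochondrial oxidation enzyme HADHA at -0.63 ± 0.054, adjusted p = 1.27e-06. The peroxisomal enzyme EHHADH fell at least 1.54-fold to below background. Fatty acid genes had 7 of 32 higher and 11 lower, and sterol efflux and lipid handling 5 of 19 higher, a count of 3 without siTET2 replicate 2, and 3 lower.

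Of 30 measured apoptosis genes 7 were higher and 11 lower. CASP8, the caspase of death receptors, was at 6.46 and 6.49 in siTET2 cells and 7.82 and 7.67 in siNTC cells, and BID, which carries its signal to mitochondria, at 7.78 and 7.79 in siTET2 cells and 8.60 and 8.82 in siNTC cells. Both fell (-1.27 ± 0.097, adjusted p = 4.57e-07 and -0.92 ± 0.079, adjusted p = 1.33e-06), as did CASP9 (-0.54 ± 0.062, adjusted p = 1.54e-05), CASP6 (-0.68 ± 0.10, adjusted p = 0.000147), TNFRSF10A (-0.74 ± 0.11, adjusted p = 0.000133) and the pore protein gene BOK (-0.94 ± 0.077, adjusted p = 8.06e-07). CASP8 and BOK lie on chromosome 2. The protective BCL2L1 fell (-0.54 ± 0.068, adjusted p = 3.59e-05), and the inhibitor XIAP rose (0.39 ± 0.091, adjusted p = 0.0042).

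Interferon genes, which can respond to transfected RNA, were mostly near background, with 13 of 35 above it. IFITM1, a membrane protein that is also high in pluripotent cells, was at 13.18 and 13.19 in siTET2 cells and 11.78 and 11.80 in siNTC cells and rose (1.39 ± 0.028, adjusted p = 6.33e-12), the only higher member, of which there were 4 after quantile normalization. The other 8 genes past the test fell, a count of 2 without siTET2 replicate 2 and of 4 without siTET2 replicate 1 or siNTC replicate 1, among them IFI6 (-0.71 ± 0.10, adjusted p = 0.000105). TRIM22, an interferon-induced ubiquitin ligase outside the list, was at 7.24 and 7.19 in siTET2 cells and 8.95 and 8.77 in siNTC cells and fell (-1.64 ± 0.089, adjusted p = 2.46e-08). Of antioxidant genes NQO1, a target of NRF2, fell (-0.56 ± 0.042, adjusted p = 3.51e-07) while GCLM, GCLC and ferritin light chain, FTL, rose (0.55, 0.41 and 0.65), 8 of 28 being higher and 9 lower. Heat shock genes had 5 of 19 higher, or 3 without siTET2 replicate 2 and 8 after quantile normalization, and 4 lower.

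Of 30 measured splicing factors 12 were higher and 6 lower, or 3 lower without siTET2 replicate 1. HNRNPA2B1 was at 11.65 and 11.68 in siTET2 cells and 10.74 and 10.78 in siNTC cells and HNRNPA1 rose beside it (0.90 ± 0.036, adjusted p = 1.70e-09 and 0.78 ± 0.083, adjusted p = 8.23e-06), and SRSF8 fell (-0.81 ± 0.067, adjusted p = 9.33e-07). The proteasome core had 9 of 16 members higher and 1 lower, with PSMB6, a catalytic subunit, at 12.43 and 12.46 in siTET2 cells and 11.71 and 11.69 in siNTC cells (0.75 ± 0.030, adjusted p = 2.08e-09), whereas its regulatory cap had 3 of 14 higher and 6 lower, such as the ATPase PSMC2 (-0.44 ± 0.038, adjusted p = 1.33e-06). Ribosomal protein genes, many of which have near-identical pseudogenes that could share signal on these probes, had 14 of 51 higher and 13 lower. RPL39L, a testis paralogue, fell at least 2.86-fold, with both siTET2 arrays just below background. Of 23 imprinted genes, whose allele depends on parental methylation, 6 were higher, or 3 without siNTC replicate 1, and 4 lower, and without chromosomes 2, 7 and 15 the counts were 2 and 1 of 11. The named genes were PEG10 (-0.59 ± 0.055, adjusted p = 2.73e-06), MEST (-0.44 ± 0.047, adjusted p = 8.51e-06) and UBE3A (-0.51 ± 0.053, adjusted p = 7.24e-06) among the lower and PHLDA2 (0.56 ± 0.089, adjusted p = 0.000232) and GRB10 (0.38 ± 0.046, adjusted p = 2.62e-05) among the higher, of which PEG10, MEST and GRB10 lie on chromosome 7 and UBE3A on chromosome 15.

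Genes ranked 11 to 30 by size of change in each direction, past the test and without overlap, gave further named changes. Among those higher, ADAMTS20, a secreted metalloprotease, was at 7.84 and 7.87 in siTET2 cells and 5.95 and 5.88 in siNTC cells. MMP16, a membrane-bound metalloprotease, was at 7.98 and 8.01 in siTET2 cells and 5.90 and 6.30 in siNTC cells, and GPR50, an orphan relative of the melatonin receptors, at 10.41 and 10.47 in siTET2 cells and 8.61 and 8.67 in siNTC cells. The 3 rose by 1.94, 1.89 and 1.80. Further members were the microtubule end-binding MAPRE3 (1.67), the protease inhibitor SPINK1 (1.57), GREB1L (1.51), the receptor phosphatase PTPRB (1.499) and the histone gene H2AC4 (1.502). OC90, LRRC39 and FAM171A2 rose by 1.53, 1.48 and 1.48, and the axonemal dynein DNAH11 at least 2.28-fold with both siNTC arrays below background. Among those lower, NFIA and NFIB encode nuclear factor I proteins that bind DNA in developing brain and other tissues. NFIA was at 6.41 and 6.29 in siTET2 cells and 8.68 and 8.57 in siNTC cells, and NFIB fell at least 2.25-fold with siTET2 arrays below background. GRPR, a bombesin receptor, was at 5.67 and 5.70 in siTET2 cells and 7.85 and 7.90 in siNTC cells, and BAG2, a co-chaperone of HSP70, at 7.98 and 7.95 in siTET2 cells and 9.82 and 9.81 in siNTC cells. Their changes were -2.28 ± 0.092, adjusted p = 2.08e-09 for NFIA, -2.19 ± 0.12, adjusted p = 2.55e-08 for GRPR and -1.85 ± 0.054, adjusted p = 1.19e-10 for BAG2. The hyaluronan receptor LYVE1 fell at least 4.34-fold, the sulfotransferase SULT1C4 at least 2.15-fold and the synaptic adhesion gene LRRTM3 at least 2.56-fold. STAG3L4, H2AC15, TNMD, ANXA3 and the zinc finger gene ZNF90 fell, with changes of -1.98 to -1.68. Several changes of this paragraph were not particular to siTET2. Against the same siNTC arrays NFIA changed by -1.92 in siTET1 and -2.42 in siTET3. GRPR changed by -1.97 and -2.36 and H2AC4 by 1.56 and 1.64 in the same order. Others, such as ADAMTS20, PTPRB and BAG2, differed between siTET2 and both other depletions.

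Among the 1842 genes with the highest mean over all arrays, 490 were higher and 751 lower. Of the 10 largest increases there, 6 were in small noncoding RNAs. VTRNA1-1, a vault RNA of the cytoplasm, was at 12.04 and 11.97 in siTET2 cells and 9.34 and 9.02 in siNTC cells and led them with a rise of 2.83 ± 0.085, adjusted p = 1.58e-10. The snoRNA SNORD45B was at 12.38 and 12.30 in siTET2 cells and 11.03 and 10.81 in siNTC cells, and the U5 RNA gene RNU5D-1 at 12.67 and 12.67 in siTET2 cells and 11.54 and 11.46 in siNTC cells. They rose by 1.42 ± 0.072, adjusted p = 1.47e-08 and 1.17 ± 0.036, adjusted p = 2.11e-10, and the snoRNAs SNORD104, SNORD45C and SNORA3A rose by 1.31, 1.08 and 1.05. Of 175 snoRNA genes 83 were higher and 33 lower. Among decreases, AP2M1, the cargo-binding subunit of the clathrin adaptor AP-2, was at 11.59 and 11.62 in siTET2 cells and 12.62 and 12.65 in siNTC cells, the endosomal sorting subunit VPS25 at 10.63 and 10.70 in siTET2 cells and 11.75 and 11.77 in siNTC cells and SBDS, a factor for release of ribosomal subunits, at 10.27 and 10.15 in siTET2 cells and 11.19 and 11.23 in siNTC cells. All 3 fell, AP2M1 (-1.03 ± 0.034, adjusted p = 3.11e-10), VPS25 (-1.10 ± 0.039, adjusted p = 6.24e-10) and SBDS (-1.003 ± 0.060, adjusted p = 5.63e-08). The zinc finger genes ZNF737 and ZNF680 fell (-1.28 and -1.04), and SNORD116-21, of the imprinted cluster on chromosome 15, fell (-1.03 ± 0.072, adjusted p = 2.02e-07).

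The siTET2 arrays were then set against both other depletions. These differences do not use the siNTC means, but the siNTC arrays entered the estimate of the spread. At an adjusted p under 0.05 in both contrasts and the same direction, 455 genes (2.47%) differed, 220 higher (1.19%) and 235 lower (1.28%) in siTET2. Only 29 of them reached 1.5-fold in both contrasts, 28 higher and 1 lower. FOS, the early response gene of AP-1, was at 8.74 and 8.60 in siTET2 cells, with means of 6.96 in siTET1 cells, 7.28 in siTET3 cells and 6.89 in siNTC cells. It differed by 1.71 ± 0.076 log2 against siTET1 (adjusted p = 9.75e-08) and 1.39 ± 0.076 against siTET3 (adjusted p = 5.99e-07). EGR1, a zinc finger gene of the same early response, was at 9.98 and 9.92 in siTET2 cells, with means of 8.30 in siTET1 cells, 8.64 in siTET3 cells and 8.83 in siNTC cells. It differed by 1.66 ± 0.060 log2 against siTET1 (adjusted p = 2.31e-08) and 1.32 ± 0.060 against siTET3 (adjusted p = 1.31e-07). CXCR4 differed by 1.03 ± 0.11 log2 against siTET1 (adjusted p = 0.000185) and 1.30 ± 0.11 against siTET3 (adjusted p = 1.59e-05). STC2 differed by 1.17 ± 0.072 log2 against siTET1 (adjusted p = 1.59e-06) and 0.92 ± 0.072 against siTET3 (adjusted p = 8.30e-06). For these 4 genes, as for LOX, BHLHE40, PTPRB and DDIT4 below, both siTET2 arrays stood above all arrays of the other groups. LOX differed by 1.56 ± 0.095 log2 against siTET1 (adjusted p = 1.59e-06) and 1.17 ± 0.095 against siTET3 (adjusted p = 1.16e-05), and BHLHE40 1.47 ± 0.093 log2 against siTET1 (adjusted p = 2.06e-06) and 1.01 ± 0.093 against siTET3 (adjusted p = 2.90e-05), both with the other depletions between siTET2 and siNTC. PTPRB differed by 1.18 ± 0.085 log2 against siTET1 (adjusted p = 6.95e-06) and 1.07 ± 0.085 against siTET3 (adjusted p = 9.19e-06), VEGFA 0.88 ± 0.070 log2 against siTET1 (adjusted p = 1.57e-05) and 0.67 ± 0.070 against siTET3 (adjusted p = 7.82e-05), and DDIT4 0.86 ± 0.081 log2 against siTET1 (adjusted p = 5.35e-05) and 0.94 ± 0.081 against siTET3 (adjusted p = 1.63e-05). NRN1, a neuritin, and the olfactory receptor gene OR5P2 belonged to the 10 largest as well, at 1.37 and 1.19 above the mean of the other depletions, and the mitochondrial pseudogene MTND2P28, whose probes may take up mitochondrial transcripts, at 1.03.

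Of the 220 genes higher than in both other depletions 165 were also higher than siNTC, and of the 235 lower ones 163 were also lower than siNTC, while 83 of the 455 were not past the test against siNTC. In 22 genes siTET2 was higher than the other depletions but lower than siNTC, and in 22 the opposite. ADM was of the first kind and differed by 0.73 ± 0.049 log2 against siTET1 (adjusted p = 4.78e-06) and 0.32 ± 0.049 against siTET3 (adjusted p = 0.00101). By list, 5 of 31 glycolysis genes (SLC2A1, HK2, PFKFB3, PFKFB4 and PDK1) were higher than in both other depletions, 5 of 31 FGF and ERK genes, 3 of 22 vascular factors and 4 of 41 chromatin oxygenases and Polycomb genes. In oxidative phosphorylation none of 45 was higher and 2 were lower. Over all genes tested 1.19% were higher and 1.28% lower in this sense. The total of 220 higher genes was 78 without an intensity trend, and the lists were chosen with earlier results known, so these counts are no test.

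On the lower side the differences were smaller. MBNL3, a regulator of splicing, was at 8.83 and 8.91 in siTET2 cells, with means of 9.27 in siTET1 cells, 9.86 in siTET3 cells and 9.20 in siNTC cells. LPIN1, a phosphatidate phosphatase of lipid synthesis, was at 8.82 and 8.73 in siTET2 cells, with means of 9.42 in siTET1 cells, 9.44 in siTET3 cells and 8.81 in siNTC cells. It was thus near siNTC in siTET2 and higher in the other depletions. CCDC25 differed by -0.74 ± 0.058 log2 against siTET1 (adjusted p = 1.27e-05) and -0.55 ± 0.058 against siTET3 (adjusted p = 7.82e-05). TLE5, a short member of the Groucho corepressor family, differed by -0.76 ± 0.066 log2 against siTET1 (adjusted p = 2.84e-05) and -0.36 ± 0.066 against siTET3 (adjusted p = 0.0034). KBTBD8, a ubiquitin ligase adaptor, differed by -0.53 ± 0.086 log2 against siTET1 (adjusted p = 0.00363) and -0.58 ± 0.086 against siTET3 (adjusted p = 0.00084). TET2 itself differed by -0.69 ± 0.095 log2 against siTET1 (adjusted p = 0.00116) and -0.41 ± 0.095 against siTET3 (adjusted p = 0.0128). The TET2 transcript was also lower in siTET3 cells than in siNTC cells (-0.47 ± 0.095, limma adjusted p = 0.00177). In siTET1 cells its change against siNTC was not past the test (-0.19). PAFAH1B2, MICA, MTRES1 and KIF3A lay 0.46 to 0.52 below the mean of the other depletions. The count of 455 rested on few arrays, with 112 genes without siTET2 replicate 1, 118 without siTET2 replicate 2, 156 without siTET1 replicate 1 and 171 without siTET1 replicate 2.

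**Figure D5:**
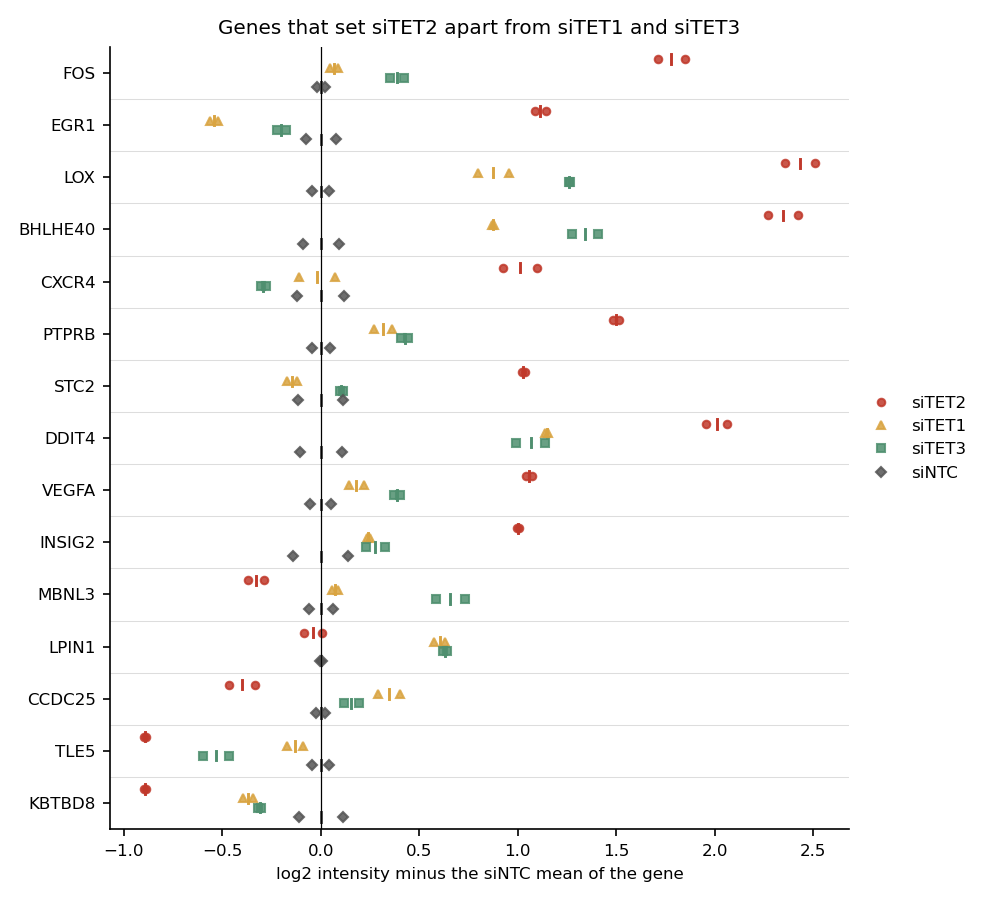
Log2 intensity of 15 genes on each array, minus the siNTC mean of the gene (points, arrays; bars, group means; siTET2, siTET1, siTET3 and siNTC from top to bottom within a gene). FOS, EGR1, CXCR4 and STC2 stand higher in siTET2 than in the 3 other groups, as do LOX, BHLHE40, PTPRB and DDIT4. LPIN1 stands near siNTC in siTET2 and higher in siTET1 and siTET3.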

How the data were processed

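The authors deposited log2 intensities, 1 value for each of 33297 transcript clusters on each of 8 Affymetrix Human Gene 1.0 ST arrays, made with Partek. How they were background-corrected and summarized, and the version, is not given in the sources used here, so the deposited normalization was kept; array medians lay between 6.22 and 6.27, and depth has no meaning for arrays, whose number limits the precision. Symbols came from the platform annotation. Clusters with 1 symbol (19460) were kept, and where a gene had several clusters (769 genes), the brightest by its mean on the 8 arrays was used, which gave 18417 genes. Background was set by 341 olfactory receptor genes, at percentile 95 of their means. A group not above background on an array was set to that level for an at-least fold, computed from group means.

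All 8 arrays were fitted with limma 3.58.1 in R 4.3.3 (lmFit, then eBayes with an intensity trend, 4 residual degrees of freedom), and p-values were adjusted by Benjamini-Hochberg over all genes. The scripts were tested on simulated data. siTET2 was contrasted with siNTC, siTET1 and siTET3, and the depletions share the same siNTC arrays, so no agreement between their contrasts was taken as a result. Named genes were TET1, TET2 and TET3, ranks 11 to 30 by change in each direction, and up to 4 higher and 4 lower members per list. These members had large changes or were ones the role of the list turns on. The largest change of a list was not always named. Also named were the 10 largest changes each way among the 1842 genes of highest mean, and the 10 largest differences each way from the other depletions. The members and lists were chosen with earlier results of these data known. Gene lists are described by counts and medians, with no set test. Alternatives were quantile normalization, the siTET2 and siNTC arrays alone, a fit in which the prior variance had no intensity trend, a filter for genes above background, averaging of a gene's clusters, the replicate number as a block, leaving out chromosomes 2, 7 and 15, fold thresholds and leaving out each array. The report does not use 1754 clusters with several symbols and 12083 without any. Results of 1 list are not reported here.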

Additional observations from a re-analysis of the deposited data

Results flagged for a closer look

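A signal was present in data that the report did not use. Of the 13837 transcript clusters with no gene symbol or with several, 1497 were higher in siTET2 than in siNTC and 1178 lower at an adjusted p under 0.05 in the limma fit, 19.3% in all. Of the higher ones 1441 were above background on both siTET2 arrays, and 872 were at least 1.5-fold higher, against 313 at least 1.5-fold lower. Their genes were not named, and the cause was not tested.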

How the results depend on the processing

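Against siNTC the number of genes past the test was 6675, and 4874 to 7225 with an array left out. Requiring 1.5-fold gave 1135 (442 higher, 693 lower) and 2-fold 228 (106 higher, 122 lower). The TET2 change was -0.88, and -0.98 to -0.78 with an array left out. With the mean of the 2 clusters of TET2 it was -0.75. The genes that set siTET2 apart from both other depletions were less stable. Their number was 455 (220 higher, 235 lower), 102 without an intensity trend (78 higher, 24 lower), 29 at 1.5-fold in both contrasts (28 higher, 1 lower), and 112 to 537 with an array left out (higher 76 to 285, lower 26 to 270). The replicate block gave 6727 genes against siNTC, 573 list members in place of 570, 465 genes against both depletions and a TET2 change of -0.88 (limma adjusted p = 5.26e-06). Deviations of same-numbered arrays correlated at 0.24 between siTET1 and siTET3 and from -0.04 to 0.03 otherwise. Whether same-numbered arrays shared a culture or a run is not given in the labels and was not tested.

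TET1, TET2, TET3, the genes named by rank and all list members past the test made up 630 genes, more than are named above. Of these, 460 kept direction and call under each of the 15 settings that gave them a value. The setting without chromosomes 2, 7 and 15 gave none to genes on these. The losses were 560 gene-by-setting values, up to 125 in a setting (without siTET2 replicate 2). With the mean of a gene's clusters NRP2 (0.066, adjusted p = 0.655) and SLC1A5 (0.022, adjusted p = 0.821) changed sign; the cause was not tested. Quantile normalization raised the higher counts of several lists, to 5 in the integrated stress response, the unfolded protein response, the aminoacyl-tRNA synthetases, contractile genes and junctions, 4 in interferon genes and 3 in retinoic acid genes, and 8 ribosomal protein genes and 2 splicing factors were then lower.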
